A study of Homo sapiens with 6 samples.

Results

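Autophagy and the lysosome were followed through 50 genes, of 56832 rows in the count tables, in cells with and without methylglyoxal. Members were the rows whose symbol equals a listed gene, and all 50 were found. The list held 32 autophagy genes (initiation kinases, the PI3-kinase complex, membrane supply, conjugation enzymes, ATG8 proteins and cargo receptors), the 3 transcription factors TFEB, TFE3 and MITF, and 15 lysosomal genes (membrane proteins, proteins of the lumen and subunits of the proton pump). All 50 passed the filter on low counts and were tested. The cells were HEK293T, a human embryonic kidney line, with a GLO1 knockout in every sample. GLO1 encodes glyoxalase 1, which with glutathione detoxifies methylglyoxal (MGO), a by-product of glycolysis that modifies proteins. Poly(A) RNA was sequenced from untreated cells (3 libraries, with the numbers 1, 2 and 4) and from cells given 0.2 mM MGO overnight (3 libraries, with the numbers 1, 3 and 4). Cells with intact GLO1 were not analysed here, and the labels do not say whether the knockout line is a single clone. They also do not say that each library had a culture of its own, so the p-values reflect library-to-library spread, which may be technical.

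Autophagy encloses cytoplasm in a double membrane, the autophagosome, which fuses with the lysosome, where acid hydrolases digest the content. The ULK1 kinase complex starts the process, a PI3-kinase complex marks the growing membrane, a conjugation system attaches ATG8 proteins to it, and receptors such as SQSTM1 tie cargo to ATG8. TFEB, TFE3 and MITF are related transcription factors that, once in the nucleus, bind a DNA element called CLEAR and are known as activators of lysosomal and autophagy genes.

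Totals ran from 41002134 to 45910040 counts in untreated and from 19195920 to 21544749 in MGO libraries, so depth was split exactly as treatment was and values in MGO rest on fewer reads. Mitochondrial transcripts took 4.20% to 5.42% of the counts in untreated and 5.34% to 8.17% in MGO libraries, with library 1 highest in each group. Their part in the results was not tested. Genes expected in HEK293T, keratins KRT8 and KRT18 and kidney or neural factors among them, were above 1 CPM (of total counts) in all 6 libraries for 10 of 10, with a summed level of 1307 to 1368 CPM in untreated and 1506 to 1573 CPM in MGO libraries. KRT8, KRT18 and VIM, which make up most of that sum, were higher in every MGO than in every untreated library, while the other 7 (PAX2, LHX1, CDH2, NES, TBX1, SIX2 and HOXD10) were lower in every MGO library. PAX2 ranged from 13.1 to 14.7 CPM in untreated and 2.34 to 2.92 CPM in MGO libraries, and CDH2 from 209 to 222 and 90.8 to 91.5 CPM. The part of these shifts in the results was not tested. Markers of blood (4 of 4), liver (3 of 3), endothelium (3 of 3) and fibroblasts (3 of 4, with LUM reaching 1.10 CPM) stayed below 1 CPM in every library, and CD68 and COL1A2 were at 0 throughout. Levels of all other genes are given as CPM, library-scaled counts adjusted for composition with TMM, and a change is thus set against the other transcripts. In bulk RNA, fewer cells of a type and less RNA per cell cannot be told apart. Calls are from edgeR's quasi-likelihood test at an adjusted p of 0.05 over 17415 genes.

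Autophagy members mostly rose and lysosomal members mostly fell in MGO. Autophagy genes outside the members, given below, did not mostly rise. Of 32 autophagy members, 19 rose, 9 fell and 4 did not pass. Of 15 lysosomal members, 3 rose, 10 fell and 2 did not pass. Of all genes tested, 83.1% were called, 41.8% higher and 41.2% lower, so a call by itself sets no member apart, and the number of members called (24 higher and 20 lower of 50) was near that share. The share of members called higher was 59.4% in autophagy and 20% in the lysosome. The median log2 fold change was 0.32 over the autophagy members, -0.19 over the lysosomal members and 0.0053 over all genes tested. Against a fold of 1.5 in place of 1, which 47.7% of all genes passed, 25.1% as higher and 22.6% as lower, 11 autophagy members were higher and 3 lower, while 0 lysosomal members were higher and 3 lower. The 3 libraries of 1 group lay wholly above those of the other for 43 of 50 members, beside 83.5% of all genes. With no filter on low counts, 15 autophagy members were higher and 13 lower, and members of any arm past a fold of 1.5 as higher fell in number from 13 to 8. With the untreated libraries thinned to the MGO depth, 18 autophagy members were higher and 8 lower, and 3 lysosomal members were higher and 9 lower.

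**Figure D1:**
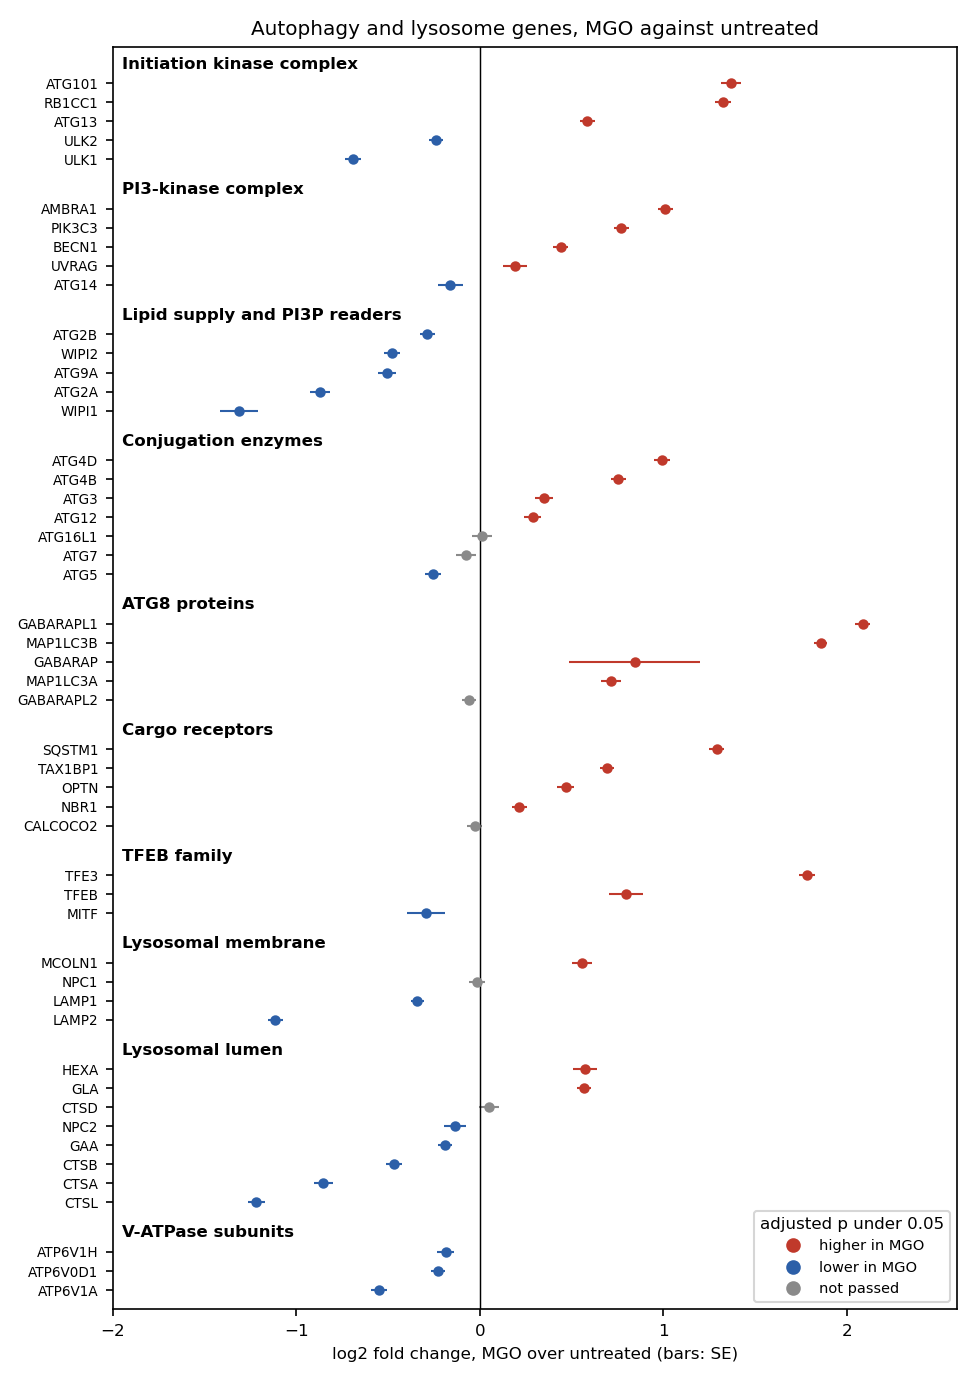
Each point is the log2 fold change of 1 member, MGO over untreated (horizontal axis), with its SE as a bar, ordered by role. Red and blue points passed an adjusted p of 0.05 and grey points did not. The 5 lipid supply and PI3P reader genes and the 3 V-ATPase subunits all lie left of 0, and the ATG8 genes MAP1LC3B and GABARAPL1 lie farthest right.

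In the initiation complex, the scaffold subunits rose and the kinases fell. ATG101 (hg38, GENCODE 29, chromosome 12, 52069246 to 52077494), which stabilises ATG13, stood at 18.0, 18.2 and 19.1 CPM in untreated libraries 1, 2 and 4 and at 45.4, 50.2 and 46.8 CPM in MGO libraries 1, 3 and 4 (log2 fold change of 1.37 with an SE of 0.054, adjusted p = 9.07e-21). RB1CC1 (chromosome 8, 52622456 to 52745843), the large scaffold also called FIP200, went from 45.8, 50.1 and 47.9 CPM to 115, 117 and 127 CPM (log2 fold change of 1.32 with an SE of 0.044, adjusted p = 9.16e-23). Every MGO library was above every untreated library for both genes. ATG13, the bridge between kinase and scaffold, rose less (0.59). The kinase gene ULK1 (chromosome 12, 131894651 to 131923167) went the other way, from 92.7 ± 1.68 to 57.3 ± 2.69 CPM (log2 fold change of -0.69 with an SE of 0.042, adjusted p = 6.75e-16), and its relative ULK2 had a log2 fold change of -0.24. About 19.2% of the exon bases of ATG101 are shared with an antisense gene in GENCODE 29, and the labels do not state a strand setting for the counting.

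The PI3-kinase complex, which makes the lipid PI3P on the forming membrane, was higher for 4 of 5 members, beside 41.8% of all genes tested. AMBRA1 (chromosome 11, 46396414 to 46594125), a regulator that ties BECN1 to the ULK1 complex, stood at 48.5, 48.3 and 50.01 CPM in untreated and 97.8, 96.8 and 101 CPM in MGO libraries (log2 fold change of 1.01 with an SE of 0.040, adjusted p = 1.12e-20). The catalytic subunit PIK3C3 (chromosome 18, 41955206 to 42087830) was at 57.5, 62.8 and 61.7 CPM and 104, 102 and 104 CPM (log2 fold change of 0.77 with an SE of 0.041, adjusted p = 1.81e-17). Neither gene had overlapping groups. BECN1, the core scaffold, rose by less (log2 fold change 0.44), as did UVRAG (0.19), a subunit of the endosomal form of the complex. ATG14, which directs the complex to autophagy, was the exception, at 18.0, 18.6 and 19.3 CPM and 18.3, 16.4 and 15.4 CPM (log2 fold change of -0.16 with an SE of 0.068, adjusted p = 0.0300), and its groups overlapped. The call on ATG14 was lost under 9 of 17 alternatives, where all alternatives ran from an adjusted p of 1.21e-06 to 0.193. Among these losses were the fits without untreated library 2 (adjusted p = 0.0502), untreated library 4 (0.0864) or MGO library 4 (0.0807). Others were RLE or upper quartile scaling and DESeq2 (0.134). The call on UVRAG was lost without MGO library 1 (adjusted p = 0.0655) or 4 (0.110), in a range of 0.00102 to 0.919, and with library size as the only scaling (0.227).

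Members that supply lipid to the growing membrane or read PI3P on it were lower in 5 of 5 cases, beside 41.2% of all genes tested. Such genes outside the members were split. WDR45 and WDR45B, relatives of WIPI1 and WIPI2, rose (log2 fold changes 0.61 and 0.38). ZFYVE1 and TECPR1, which also bind PI3P, rose (1.20) and fell (-1.36), and the lipid scramblases VMP1 and TMEM41B fell (-0.40 and -0.41). WIPI1 (chromosome 17, 68420948 to 68457513), a PI3P-binding protein, fell from 11.5, 10.5 and 10.4 CPM to 4.70, 4.78 and 3.66 CPM (log2 fold change of -1.31 with an SE of 0.10, adjusted p = 4.94e-13). ATG2A (chromosome 11, 64894546 to 64917248), a lipid transfer protein, fell from 46.2, 45.5 and 43.8 CPM to 24.0, 23.7 and 26.2 CPM (log2 fold change of -0.87 with an SE of 0.054, adjusted p = 8.97e-16). The MGO libraries were below the untreated ones for both. ATG9A, a lipid scramblase, WIPI2, the PI3P reader that recruits ATG16L1, and ATG2B had log2 fold changes of -0.50, -0.48 and -0.29, and all 3 passed the test. A protein-coding gene on the same strand covers 38.8% of the exon bases of ATG9A. WIPI1 rests on 441 to 535 counts per untreated and 77 to 89 per MGO library. Its exons overlap those of ARSG on the opposite strand over 24.3% of their length, and ARSG, a sulfatase, also fell (-1.13).

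Among the members for conjugation, ATG4D and ATG4B, proteases that trim and recycle ATG8 proteins, rose most. ATG4D (chromosome 19, 10543895 to 10553418) went from 40.0, 39.9 and 40.9 CPM to 83.2, 77.6 and 79.7 CPM (log2 fold change of 0.99 with an SE of 0.043, adjusted p = 1.01e-19). ATG4B (chromosome 2, 241637213 to 241673857) went from 47.5, 46.1 and 47.4 CPM to 81.9, 77.1 and 78.7 CPM (log2 fold change of 0.75 with an SE of 0.042, adjusted p = 7.87e-17). Groups did not overlap for either protease gene. ATG3, the E2-like enzyme, and ATG12, a ubiquitin-like protein, rose by less (log2 fold changes 0.35 and 0.29), and ATG5, the partner of ATG12, fell (-0.26). With no filter on low counts ATG12 did not pass (log2 fold change 0.105, adjusted p = 0.0615, range over alternatives 7.06e-09 to 0.0615). ATG7, the E1-like enzyme, was at 29.3, 30.4 and 30.6 CPM in untreated and 28.1, 29.4 and 28.3 CPM in MGO libraries and did not pass (log2 fold change -0.07, adjusted p = 0.189). ATG16L1, which brings the ATG12 to ATG5 conjugate to the membrane, was at 28.6, 29.3 and 30.9 CPM and 28.7, 30.1 and 30.6 CPM (0.01, adjusted p = 0.829). Both of these genes had overlapping groups, and with library size as the only scaling ATG7 passed as lower (adjusted p = 0.00410, range over alternatives 1.34e-05 to 0.858). Exons of VGLL4 on the opposite strand cover 18.1% of those of ATG7, and VGLL4 had a log2 fold change of -1.93.

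The ATG8 genes, whose products coat the autophagosome and hold cargo receptors, held the largest rises of the 50 members, but not in every gene. GABARAPL1 (chromosome 12, 10212458 to 10223130) stood at 47.8, 43.1 and 46.6 CPM in untreated and 195, 198 and 191 CPM in MGO libraries, 4.24-fold higher (log2 fold change of 2.09 with an SE of 0.042, adjusted p = 3.10e-28). MAP1LC3B (chromosome 16, 87383995 to 87404779), the LC3 protein used as the standard marker of autophagosomes, stood at 137, 133 and 132 CPM and 486, 483 and 488 CPM, 3.62-fold higher (log2 fold change of 1.86 with an SE of 0.036, adjusted p = 1.02e-28). Spread within a group was small beside these differences, and no library of either group came near the other. MAP1LC3A (chromosome 20, 34546854 to 34560345) rose from 19.8, 19.9 and 19.8 CPM to 32.9, 33.8 and 31.2 CPM (log2 fold change of 0.72 with an SE of 0.055, adjusted p = 2.55e-13). GABARAPL2 (chromosome 16, 75566351 to 75577881), also called GATE-16, was at 90.3, 89.2 and 89.0 CPM and 87.9, 88.3 and 81.9 CPM and did not pass (log2 fold change -0.06, adjusted p = 0.164), although the MGO libraries were all slightly below the untreated ones. It passed as lower without MGO library 1 (adjusted p = 0.0256) and with library size as the only scaling (0.000857), where all alternatives ran from 2.70e-07 to 0.883.

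Per exon length, the order within the ATG8 family differed between the groups. In untreated cells GABARAPL2 (29.5 ± 0.239 CPM per kb of exon, SD, n = 3) was above MAP1LC3B (25.2 ± 0.443), with GABARAPL1 (11.2 ± 0.603) and MAP1LC3A (11.3 ± 0.0225) next and not apart beyond their spread. In MGO cells MAP1LC3B (91.4 ± 0.433) was highest, then GABARAPL1 (47.6 ± 0.872), GABARAPL2 (28.4 ± 1.19) and MAP1LC3A (18.5 ± 0.753). The ratio of MAP1LC3B to GABARAPL2 per exon length came to 0.865, 0.853 and 0.849 in untreated and 3.16, 3.12 and 3.40 in MGO libraries, and that of GABARAPL1 to GABARAPL2 was 0.393, 0.359 and 0.388 and 1.64, 1.67 and 1.73. GABARAPL2 thus led both genes in each untreated library and trailed both in each MGO library. The pairs were chosen after the levels were seen and no test is given. Exon lengths are those of GENCODE 29, MAP1LC3B and GABARAPL1 have near-identical copies elsewhere in the genome, and the labels do not state the counting annotation, so these levels are approximate.

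GABARAP itself gave almost no counts. Its raw counts were 14, 12 and 16 without and 10, 12 and 10 with MGO, or 0.302, 0.251 and 0.376 and 0.553, 0.644 and 0.475 CPM. The MGO values were all higher after scaling (log2 fold change of 0.84 with an SE of 0.36, adjusted p = 0.0308), but the counts themselves were not. Leaving out untreated library 1 (adjusted p = 0.0622), untreated library 2 (0.104), MGO library 1 (0.0746) or MGO library 3 (0.137) ended the call, and over all alternatives the adjusted p ran from 0.0180 to 0.277. Exons of other GENCODE 29 genes, a protein-coding gene on the same strand among them, cover 55.7% of the exon bases of GABARAP, the highest share among the 50 members. The labels do not state how reads in such overlaps were assigned, so the level of GABARAP is uncertain.

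**Figure D2:**
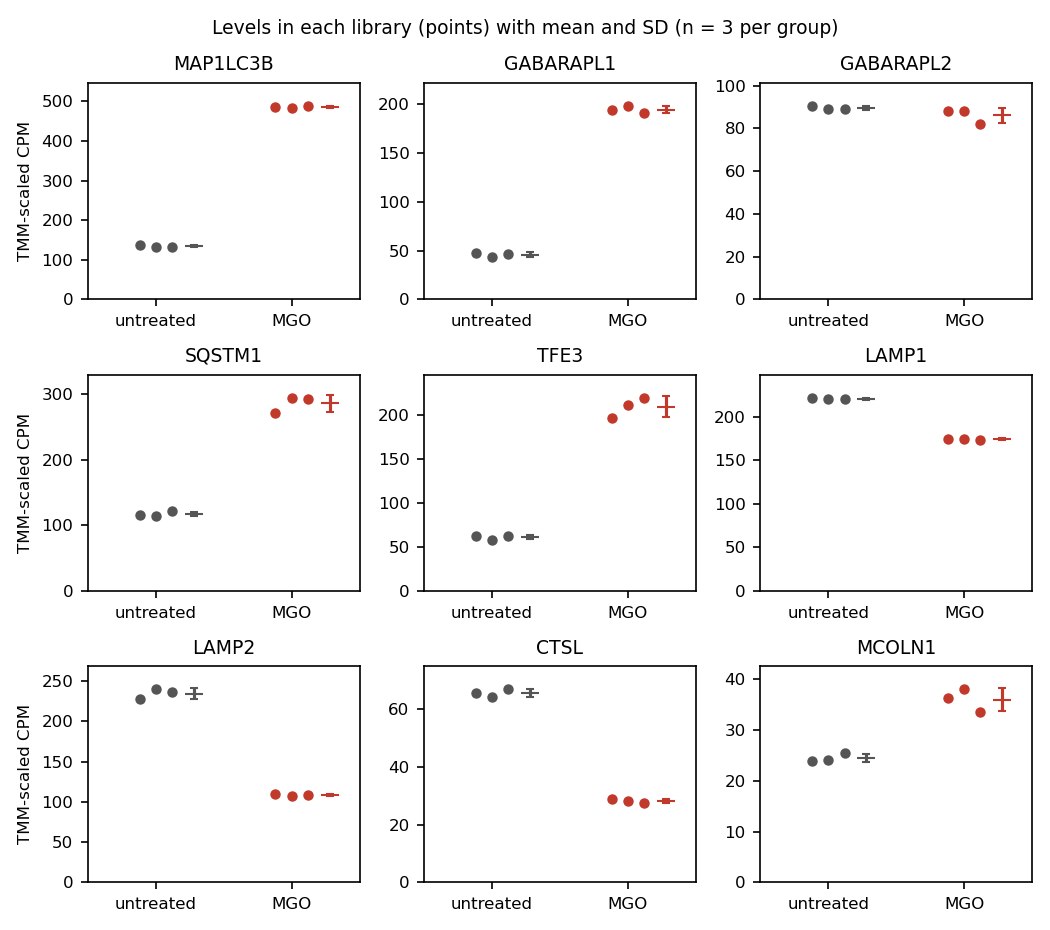
Points are TMM-scaled CPM (vertical axis, from 0) in each library of 9 members, grey for untreated and red for MGO, with the group mean and SD beside them (n = 3 per group). MAP1LC3B, GABARAPL1, SQSTM1, TFE3 and MCOLN1 are higher in MGO, LAMP1, LAMP2 and CTSL are lower, and GABARAPL2 is nearly level.

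Cargo receptors, which bind ubiquitinated cargo and ATG8 at once, rose in 4 of 5 cases, beside 41.8% of all genes tested. SQSTM1 (chromosome 5, 179806398 to 179838078), the receptor p62, stood at 116, 115 and 122 CPM in untreated and 272, 295 and 293 CPM in MGO libraries (log2 fold change of 1.29 with an SE of 0.040, adjusted p = 1.73e-23). TAX1BP1 (chromosome 7, 27739331 to 27844564) was at 87.4, 90.9 and 93.4 CPM and 142, 147 and 149.9 CPM (log2 fold change of 0.69 with an SE of 0.039, adjusted p = 1.23e-16). The groups were apart for both genes. OPTN, a receptor for damaged mitochondria and bacteria, rose by 0.47 on the log2 scale, and NBR1, a receptor that works with SQSTM1, by 0.21. With no filter on low counts NBR1 did not pass (log2 fold change 0.0324, adjusted p = 0.562, range over alternatives 6.50e-08 to 0.562). CALCOCO2, also called NDP52, did not pass, at 71.6, 72.6 and 74.7 CPM and 72.5, 70.8 and 71.2 CPM (log2 fold change -0.03, adjusted p = 0.498), and its groups overlapped. It passed as lower with library size as the only scaling (adjusted p = 0.00587) and with no filter (9.43e-06), where all alternatives ran from 9.43e-06 to 0.90. Exons of MRNIP on the opposite strand cover 20.7% of those of SQSTM1.

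Of the TFEB family, TFE3 and TFEB rose and MITF fell. TFE3 (chromosome X, 49028726 to 49043486) stood at 62.0, 58.5 and 62.6 CPM in untreated and 197, 212 and 220.3 CPM in MGO libraries, 3.44-fold higher (log2 fold change of 1.78 with an SE of 0.043, adjusted p = 3.11e-26). TFEB (chromosome 6, 41683978 to 41736259) stood at 5.07, 5.43 and 5.12 CPM and 8.84, 9.07 and 9.17 CPM (log2 fold change of 0.79 with an SE of 0.093, adjusted p = 3.26e-09). Both had all MGO libraries above all untreated ones. MITF (chromosome 3, 69739435 to 69968337), better known from pigment cells, went from 6.77, 6.16 and 6.58 CPM to 4.97, 5.90 and 5.04 CPM (log2 fold change of -0.29 with an SE of 0.10, adjusted p = 0.0111), a smaller difference at a low level. Without both libraries numbered 1 MITF did not pass (adjusted p = 0.0803), nor with DESeq2 (0.0624), where all alternatives ran from 3.35e-05 to 0.0803. Per exon length, TFE3 was the main member, at 14.2 CPM per kb in untreated and 49.0 in MGO cells, against 0.922 and 1.60 for TFEB and 0.906 and 0.739 for MITF. TFEB and MITF did not differ beyond their spread in untreated cells. The ratio of TFE3 to TFEB came to 16.1, 14.2 and 16.1 in untreated and 29.4, 30.9 and 31.7 in MGO libraries. Counts of mRNA do not show where these proteins were in the cell.

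Because TFE3 and TFEB bind CLEAR elements, promoters of the members were searched for the core TCACGTG, on both strands, in the 300 bases from 250 before to 50 after each start (RefSeq, GRCh38.p14). A window was at hand for 41 members. The core was found in 6 of 10 lysosomal, 2 of 28 autophagy and 0 of 3 TFEB family members, and in 6.96% of 10770 tested genes with a window (3.67% of all 34796 windows). For each of these members 1 or 2 stretches that hold it are shown, 5′ to 3′ on the gene's strand, to set these letters beside the changes of the same genes. Those of LAMP1 and MCOLN1 hold no annotated exon and run to 100 bases, the others are cut to 30 bases around a site, and capitals mark the core. The core and its reverse complement overlap in TCACGTGA, which was counted as 1 site. Positions are chr13:113297039-113297138 (plus strand) for LAMP1, chr19:7522524-7522623 (plus) for MCOLN1, chr20:45891290-45891319 (plus) for CTSA, chr17:80101493-80101522 and chr17:80101538-80101567 (plus) for GAA, chr16:67481199-67481228 (minus) for ATP6V0D1, chr11:1763956-1763985 (minus) for CTSD, chr3:112561963-112561992 (minus) for ATG3 and chr14:55411831-55411860 (minus) for ATG14.
LAMP1: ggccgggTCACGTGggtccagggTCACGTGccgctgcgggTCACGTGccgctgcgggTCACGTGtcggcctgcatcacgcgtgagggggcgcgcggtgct
MCOLN1: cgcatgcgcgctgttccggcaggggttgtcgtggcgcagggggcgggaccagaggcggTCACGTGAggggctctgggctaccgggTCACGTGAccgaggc
CTSA: tgTCACGTGgcgccggagtTCACGTGActc
GAA upstream site: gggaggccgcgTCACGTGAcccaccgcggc
GAA downstream site: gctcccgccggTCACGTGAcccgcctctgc
ATP6V0D1: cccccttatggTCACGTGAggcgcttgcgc
CTSD: ccggccgcgccCACGTGAccggtccgggtg
ATG3: cctttctcacgTCACGTGccgggagagtct
ATG14: acaaaatccCACGTGActggctctcctctc

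LAMP1 carried 4 cores in the stretch shown and 6 in its window, the most of any member. ATG3 carried 2 in its window, of which the upstream one is shown. Among the lysosomal members with the core, LAMP1, CTSA, GAA and ATP6V0D1 fell, MCOLN1 rose and CTSD did not pass, so 66.7% of 6 were lower, against 50% of the 4 with a window but no core. With so few genes these shares are a description only. ATG3 with the core rose and ATG14 with the core fell, while none of GABARAPL1, MAP1LC3B, GABARAPL2, SQSTM1 and TFE3 held it in their windows. Across all tested genes with a window, 38.1% of 750 with the core were higher and 47.9% lower, against 40.1% and 45.2% of 10020 without it. The shorter E-box CACGTG, which lies inside the core, occurred in 8 of 41 members, the same as the core, and in 12.4% of tested genes. The ATF4 element TGATGNAA occurred in 0 of 41 members and 2.75% of tested genes. The antioxidant element TGACNNNGC occurred in 8 of 10 lysosomal and 3 of 28 autophagy members and 19.2% of tested genes. In LAMP1 and GAA its match shares the letters TCA with a core. Matches describe letters in these windows only, and binding was not measured.

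Among lysosomal membrane proteins, LAMP2 fell most and MCOLN1 rose. LAMP2 (chromosome X, 120427827 to 120469365), a glycoprotein of the lysosomal coat that is also needed for chaperone-mediated autophagy, went from 227, 239.8 and 236 CPM to 109, 107 and 109 CPM, 2.17-fold lower (log2 fold change of -1.11 with an SE of 0.039, adjusted p = 3.25e-22). LAMP1 (chromosome 13, 113297241 to 113323672), its partner in the coat, fell from 221 ± 1.04 to 174 ± 0.847 CPM (-0.34). The ratio of LAMP2 to LAMP1 per exon length came to 1.06, 1.13 and 1.11 in untreated and 0.649, 0.634 and 0.651 in MGO libraries, a pair chosen after the levels were seen. MCOLN1 (chromosome 19, 7522626 to 7534009), the calcium channel that links lysosomes to TFEB activation, rose from 23.8, 24.0 and 25.4 CPM to 36.2, 38.0 and 33.5 CPM (log2 fold change of 0.56 with an SE of 0.056, adjusted p = 1.15e-10). The groups were apart for these 3 genes. NPC1, which exports cholesterol from the lysosome, was at 107, 107 and 103 CPM and 98.5, 104 and 111 CPM and did not pass (log2 fold change -0.02, adjusted p = 0.724). Without MGO library 4, the highest for this gene, it passed as lower (adjusted p = 0.0235), where all alternatives ran from 2.36e-05 to 0.994, and its sign turned with RLE or upper quartile scaling.

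In the lumen, 5 of 8 members fell and 2 rose, beside 41.2% lower and 41.8% higher among all genes tested. CTSL (chromosome 9, 87725519 to 87731393), the cysteine protease cathepsin L, stood at 65.6, 64.2 and 66.8 CPM in untreated and 28.8, 28.3 and 27.5 CPM in MGO libraries, 2.33-fold lower (log2 fold change of -1.22 with an SE of 0.048, adjusted p = 8.32e-21). CTSA (chromosome 20, 45890144 to 45898820), a carboxypeptidase that protects other lysosomal enzymes, stood at 49.2, 52.2 and 49.3 CPM and 27.5, 29.1 and 26.9 CPM (log2 fold change of -0.85 with an SE of 0.051, adjusted p = 5.48e-16). MGO libraries were below untreated ones for both. CTSB, cathepsin B, fell by less (-0.47), as did GAA (-0.19), the enzyme that breaks down glycogen. The glycosidases GLA, alpha-galactosidase A, and HEXA, the alpha subunit of beta-hexosaminidase, rose by 0.57 and 0.57 on the log2 scale. CTSD, the aspartic protease cathepsin D, was at 50.1, 49.8 and 52.2 CPM and 58.5, 50.1 and 49.1 CPM and did not pass (log2 fold change 0.05, adjusted p = 0.382), with MGO library 1 above the rest, and its sign turned with library size as the only scaling. Other genes cover 52.7% of the exon bases of CTSD and 28.5% of those of CTSA. NPC2, which hands cholesterol to NPC1, passed narrowly (log2 fold change of -0.14 with an SE of 0.058, adjusted p = 0.0426), with overlapping groups. That call was lost under 8 of 17 alternatives, among them without untreated library 2 (adjusted p = 0.0613) or 4 (0.122), where all alternatives ran from 5.12e-12 to 0.247, and with RLE or upper quartile scaling.

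The 3 subunits of the V-ATPase, the pump that acidifies the lysosome, were lower. ATP6V1A (chromosome 3, 113747019 to 113812056), the catalytic subunit, went from 84.0, 82.7 and 79.4 CPM to 56.1, 53.1 and 58.5 CPM (log2 fold change of -0.55 with an SE of 0.044, adjusted p = 4.67e-13). ATP6V0D1 (chromosome 16, 67438014 to 67481237), which joins the stalk to the membrane ring, went from 119, 117 and 117 CPM to 97.8, 103 and 100.3 CPM (log2 fold change of -0.23 with an SE of 0.038, adjusted p = 2.64e-06). ATP6V1H, a regulatory subunit, had a log2 fold change of -0.19. Groups did not overlap for any of the 3, but none passed a fold of 1.5. The other V-ATPase genes were split, as all genes tested were, with 8 higher and 8 lower of 17 tested (20 listed, median log2 fold change 0.14). ATP6V0E1 fell from 84.1 ± 2.78 to 36.0 ± 2.19 CPM (log2 fold change of -1.22 with an SE of 0.048, adjusted p = 6.92e-21) and ATP6V0E2, its paralog, from 95.7 ± 3.18 to 43.9 ± 2.97 CPM (log2 fold change of -1.13 with an SE of 0.047, adjusted p = 3.30e-20).

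Summed over members, autophagy transcripts took a larger and lysosomal transcripts a smaller part of the MGO libraries. The 32 autophagy genes summed to 1885, 1889 and 1902 CPM in untreated and 2813, 2864 and 2894 CPM in MGO libraries (1892 ± 9.12 against 2857 ± 40.8 CPM, SD, n = 3). The 15 lysosomal genes summed to 1451, 1461 and 1465 CPM and 1206, 1180.5 and 1158 CPM (1459 ± 7.23 against 1182 ± 24.2 CPM). Lysosomal counts were 0.771 ± 0.00207 of autophagy counts in untreated and 0.414 ± 0.0144 in MGO libraries. LAMP2, chosen after its values were seen, went from 234 to 108 CPM, or from 16.1% to 9.16% of the lysosomal sum. A few genes held much of the autophagy sum. Without MAP1LC3B, GABARAPL1 and SQSTM1, chosen after their values were seen, the sum was 1595 ± 8.76 in untreated and 1890.4 ± 30.8 CPM in MGO libraries. Within MGO, library 1 had the lowest autophagy sum, the highest lysosomal sum and the highest mitochondrial share, and the part of that share was not tested.

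**Figure D3:**
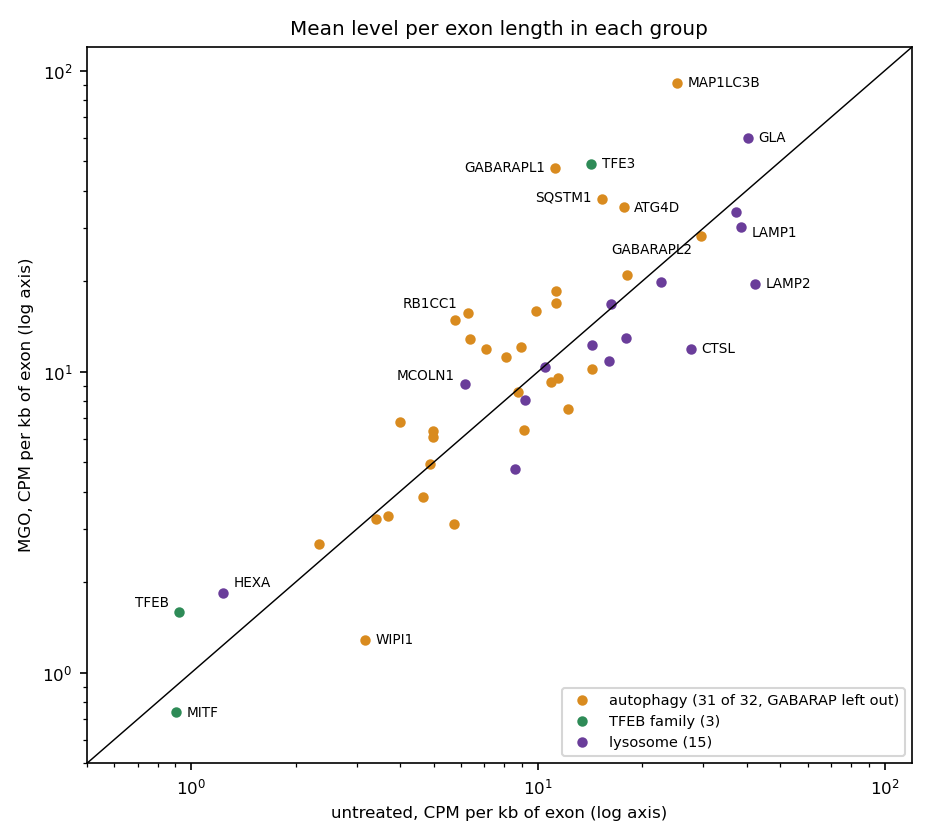
Each point is the mean level of 1 member in CPM per kb of exon, untreated on the horizontal and MGO on the vertical log axis, coloured by arm, and the line marks equal levels. GABARAP, whose level is uncertain, is left out. MAP1LC3B, GABARAPL1, TFE3 and SQSTM1 lie well above the line, and LAMP2, CTSL and WIPI1 well below it.

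Per exon length, the most abundant members of untreated cells were lysosomal and those of MGO cells were mixed. LAMP2 (42.4 ± 1.14 CPM per kb), GLA (40.4 ± 0.743), LAMP1 (38.5 ± 0.182) and NPC2 (37.4 ± 1.88) led in untreated cells, where LAMP1 and NPC2 did not differ beyond their spread. MAP1LC3B (91.4 ± 0.433), GLA (60.0 ± 1.63), TFE3 (49.0 ± 2.75) and GABARAPL1 (47.6 ± 0.872) led in MGO cells, where TFE3 and GABARAPL1 did not differ beyond their spread. LAMP2 stood at 19.6 ± 0.249 CPM per kb in MGO cells. TFE3 went from rank 17 to rank 3 of 50, and LAMP2 from rank 1 to rank 12.

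Most lysosomal genes outside the 50 members were lower, beside 41.2% of all genes tested. Of 45 tested hydrolases and their cofactors, 33 fell and 8 rose (median log2 fold change -0.67), and 23 were past a fold of 1.5 as lower, beside 22.6% of all genes. HYAL2, a hyaluronidase, fell from 20.8 ± 0.175 to 5.63 ± 0.796 CPM (log2 fold change of -1.89 with an SE of 0.084, adjusted p = 2.01e-19), and LIPA, the acid lipase that frees cholesterol, from 78.3 ± 1.71 to 22.3 ± 2.58 CPM (log2 fold change of -1.81 with an SE of 0.057, adjusted p = 8.23e-23). Of 27 other lysosomal membrane genes, 20 fell and 3 rose (median -0.69). SLC17A5, which exports sialic acid, fell from 58.3 ± 1.73 to 16.5 ± 0.433 CPM (-1.82), and SLC11A2, a metal transporter, from 64.4 ± 0.635 to 19.5 ± 1.46 CPM (-1.72). Genes that sort enzymes to the lysosome fell in 14 and rose in 4 of 20 cases (median -0.36). GNPTAB, which makes the mannose 6-phosphate tag, went from 73.8, 74.5 and 74.4 CPM to 21.3, 19.5 and 18.8 CPM (log2 fold change of -1.90 with an SE of 0.052, adjusted p = 5.41e-25), and NAGPA, which uncovers that tag, from 11.8, 11.9 and 12.2 CPM to 4.70, 4.19 and 4.04 CPM (log2 fold change of -1.48 with an SE of 0.095, adjusted p = 3.03e-15). All MGO libraries were below all untreated ones for these 6 genes.

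Autophagy genes outside the members did not mostly rise, beside 41.8% higher and 41.2% lower of all genes tested. Further core genes were 45.8% higher and 50% lower, fusion genes 34.8% and 43.5%, and other receptors 37.5% and 54.2%. Of 24 further core genes and regulators, 11 rose and 12 fell (median log2 fold change -0.13), including BCL2, an inhibitor of BECN1, which fell from 31.3 ± 1.52 to 8.35 ± 0.753 CPM (log2 fold change of -1.91 with an SE of 0.073, adjusted p = 4.31e-21), and ATG10, the E2-like enzyme for ATG12, which fell from 10.6 ± 0.902 to 3.34 ± 0.215 CPM (-1.67). Of 23 genes for fusion with the lysosome, 8 rose and 10 fell (median -0.0013). BORCS5, a subunit of a complex that moves lysosomes, fell from 11.4 ± 0.758 to 5.09 ± 0.422 CPM (-1.16), and MON1A, part of the activator of RAB7, rose from 13.1 ± 0.269 to 25.7 ± 1.85 CPM (0.98). Of 24 other cargo receptors and partners, 9 rose and 13 fell (median -0.31). NUFIP1, a receptor for ribosomes, rose from 17.6 ± 1.54 to 49.99 ± 1.76 CPM (1.51), and FAM134A (now RETREG2), a receptor for the endoplasmic reticulum, fell from 70.4 ± 2.27 to 29.2 ± 1.63 CPM (-1.27).

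**Figure D4:**
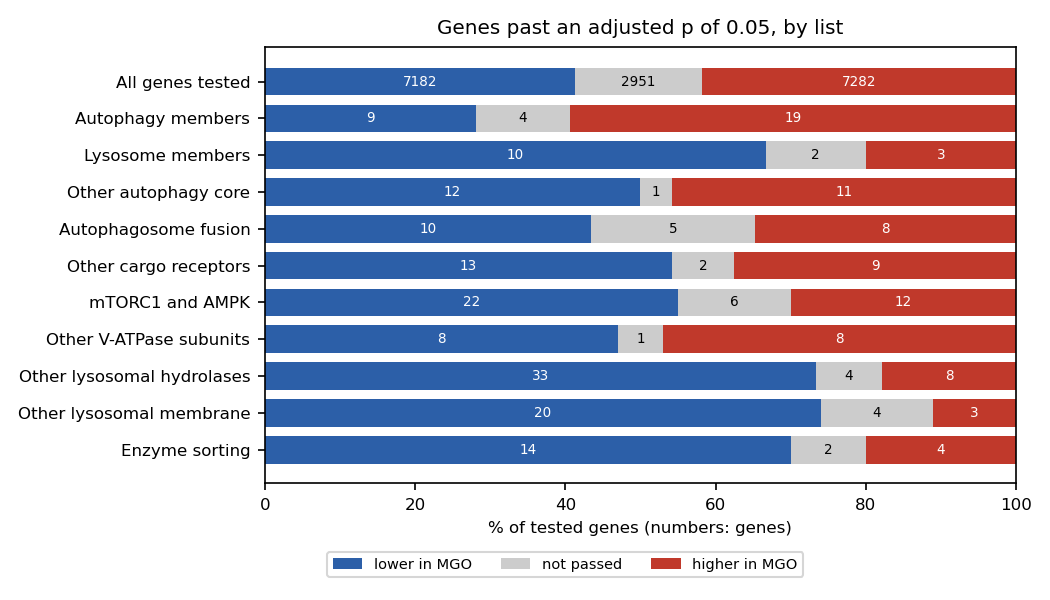
Bars give the share of tested genes in each list that were lower (blue), not past the test (grey) or higher (red) in MGO at an adjusted p of 0.05, with the number of genes inside. The lysosomal hydrolase, lysosomal membrane and enzyme sorting lists have 33 of 45, 20 of 27 and 14 of 20 genes lower, against 7182 of 17415 for all genes tested.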

How the data were processed

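Poly(A) RNA from 3 untreated and 3 MGO libraries was analysed. The authors deposited whole-number counts for 56832 gene symbols in each library, without normalization. HTSeq 0.9.1, STAR 2.4, Trim Galore, Picard and the build hg38 are named per the submitters' processing notes; no role, annotation or strand setting was given in the sources used here. Rows with a date for a name (29, 24 of them tested, 0.178% to 0.242% of counts) and 4 rows with a repeated name were kept and not named. Libraries of a group differed by more than sampling noise (chi-square per degree of freedom 1.88 to 14.7), and each counted as 1 sample. Intervals from counts would cover counting error only.

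The fit used edgeR 4.0.16 in R 4.3.3: filterByExpr (17415 genes kept), TMM, robust glmQLFit, and a two-sided glmQLFTest between the groups (4 residual degrees of freedom), adjusted over all genes tested by Benjamini-Hochberg; glmTreat tested against a fold of 1.5. The SE is the absolute log2 fold change divided by the square root of F. No test was made over a list. The alternatives tried were other scalings (RLE, upper quartile, library size), no filter, at least 1 CPM in every library, each library left out, both libraries numbered 1 left out, the replicate number as a block, thinning, edgeR without robust shrinkage, limma voom (3.58.1) and DESeq2 (1.42.0). Positions and exon lengths are from GENCODE release 29 on the same assembly, joined by symbol. Exons of other genes cover at least 10% of the exon bases in 11 of 50 members. Older symbols of 9 listed genes outside the members came from RefSeq.

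The members and lists were chosen with earlier results of these data known. Values in every library are given for the 2 members of each role with the largest absolute log2 fold change, all ATG8 and TFEB family genes and every member that did not pass; of each further list, the 2 called genes with the largest change and a mean of at least 5 CPM are named. ULK1, ATG14, LAMP1, ARSG, KRI1, VGLL4, WDR45, WDR45B, ZFYVE1, TECPR1, VMP1, TMEM41B, ATG4A and ATG4C are given in addition, chosen after their values were seen.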

Additional observations from a re-analysis of the deposited data

How the results depend on the processing

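Across 17 alternatives, 784 of 848 member values kept their direction and side of the threshold, 34 lost a call, 10 gained 1 with the same sign and 20 changed sign; 37 of 50 members never changed. Sign changes were seen in the log2 fold changes of 5 members that had not passed. ATG16L1 was at -0.0927 with library size only, -0.170 with no filter on low counts, where it passed as lower (adjusted p = 0.00571), -0.00255 with the replicate block, and -0.0449 to 0.0356 with single libraries left out. CTSD was at -0.0569 with library size only, -0.133 with no filter, where it passed as lower (adjusted p = 0.0131), -0.0568 to 0.0627 with single libraries left out (lowest without MGO library 1) and -0.0506 without both libraries numbered 1. NPC1 was at 0.00617 with RLE, 0.00234 with upper quartile scaling, 0.0490 with at least 1 CPM in every library, 0.0170 with thinning, 0.0230 without both libraries numbered 1 and 0.00596 with DESeq2. CALCOCO2 was at 0.0357 and GABARAPL2 at 0.00629 with at least 1 CPM in every library, and CALCOCO2 at 0.0101 with thinning. The single TFEB family member called lower became 0 without both libraries numbered 1 and with DESeq2, and the 13 members past a fold of 1.5 as higher became 8 with no filter on low counts; the cause was not tested. With no filter, 15 autophagy members were higher and 13 lower. Library size as the only scaling moved the median log2 fold change of all genes by -0.105, and with it 17 autophagy members were higher and 12 lower. No filter moved the median of all genes by 0.195, but over 35722 genes in place of 17415. With no filter the member medians were lower, at 0.135 against 0.318 for autophagy and -0.373 against -0.190 for the lysosome. With the replicate number as a block, 18 autophagy members were higher and 8 lower, 3 lysosomal members were higher and 9 lower, and 13451 genes in all were called against 14464 without it; 12 members were past a fold of 1.5 as higher, and ATG14, GABARAP and NPC2 lost their calls. Libraries with the same number did not deviate together (correlations of 0.020 and -0.0078, against -0.030 to 0.039 for differently numbered pairs). So few pairs cannot show whether equal numbers mark a shared culture or day, and the labels do not say. Leaving out 1 library at a time gave 17 to 19 autophagy members higher and 9 to 11 lysosomal members lower. Levels in MGO rest on about 0.455 times the counts of untreated libraries, which limits GABARAP, WIPI1, TFEB and MITF most.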

Other observations

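Genes of the mTORC1 and AMPK pathways, which sense nutrients at the lysosome and set the activity of ULK1 and TFEB, were lower more often than higher. Of 40 tested of 41 listed, 22 fell, 12 rose and 6 did not pass (edgeR quasi-likelihood test), with a median log2 fold change of -0.27, beside 41.2% lower and 41.8% higher among all genes tested. Of the 3 sestrins, which hold back mTORC1, SESN1 and SESN3 fell and SESN2 rose. SESN1 stood at 68.1, 62.4 and 64.1 CPM in untreated libraries 1, 2 and 4 and 18.3, 18.2 and 20.2 CPM in MGO libraries 1, 3 and 4 (log2 fold change of -1.77 with an SE of 0.056, adjusted p = 2.31e-23). SESN2 stood at 64.2, 68.9 and 68.8 CPM and 196, 233 and 260.5 CPM (log2 fold change of 1.77 with an SE of 0.12, adjusted p = 6.75e-05), with more spread among the MGO libraries than among the untreated ones. SESN3, chosen after its values were seen, stood at 97.8, 107 and 98.3 CPM and 51.5, 47.9 and 46.2 CPM (log2 fold change of -1.06 with an SE of 0.046, adjusted p = 1.34e-19). The groups did not overlap for any of the 3 genes.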
